A study of Pan paniscus with 11 samples.

Results

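The 10 bonobo fibroblast lines harvested under standard conditions were grouped by the array intensity of the mitotic cyclin gene CCNB2, with a threshold of 320. The 5 lines above it are called CCNB2-high and the 5 below it CCNB2-low, and together they make 10 of the 11 cultures of the series. The CCNB2-high lines were male line 4 (age 17 years), male line 3 (12 years), female line 3 (4 years), male line 5 (19 years) and male line 2 (2 years). The CCNB2-low lines were male line 1 (4 years), female line 2 (2 years), female line 4 (20 years), female line 5 (20 years) and female line 1 (9 years). The labels call all donors normal and give no tissue of origin, and they do not say whether lines of the same sex and age (female lines 4 and 5) came from separate animals. With 1 culture and 1 array per line, the spread between lines holds both biological and technical differences. The remaining culture, a second one of male line 1 harvested at 50% confluence, was left out. Mean age was 10.8 years in the CCNB2-high and 11 years in the CCNB2-low lines, whereas sex was unevenly divided, with 4 males and 1 female against 1 male and 4 females. These groups were drawn from a measured value and are not groups of the original study. Per-line values below follow the order in which the lines are named here, that of falling CCNB2.

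Cyclin B2 and cyclin B1 bind the kinase CDK1 and drive entry into mitosis. Their transcripts accumulate in G2 and mitosis and disappear when cells leave the cycle, so in a culture their level follows the share of cells near division. Fibroblasts also make extracellular matrix, the enzymes that remodel it and many secreted factors, and the question here was whether genes outside the cell cycle differ between the groups. In RNA from a whole culture, fewer dividing cells and less mitotic RNA per cell cannot be told apart.

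The values that chose the groups are given as a description. CCNB2 intensity was 550, 511, 400, 398 and 349 in the CCNB2-high lines and 299, 243, 136, 124 and 100 in the CCNB2-low lines. The line just above the threshold (male line 2) and the line just below it (male line 1) differed by a ratio of 1.17, so the division falls within a graded series of values and not in a wide gap. Female line 1 lay at 100, the lowest value that 9 of the 10 arrays hold, and its CCNB2 level is only an upper bound.

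The label of high and low mitotic expression held for mitotic genes beyond CCNB2. No test is given for them, since they move with the gene that defined the groups. Of 63 measured genes on a list of mitotic genes, CCNB2 left out, 62 had a higher mean in the CCNB2-high lines, with a median difference of 0.82 on the log2 scale. The exception was CCNG2, a cyclin associated with arrest more than with mitosis. For 14 of the 63, among them CCNB1, PLK1, CDC20, TPX2 and MKI67, every CCNB2-high line lay above every CCNB2-low line. Of the probe sets outside the cell cycle lists 0.422% separated in this direction. In 1 of the 14, TROAP, all CCNB2-low lines were at the floor of 100, so the filter on low values, which asks for 5 lines above the floor, had fixed its separation.

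CCNB1, the partner cyclin, read 819, 1034, 1268, 973 and 435 in the CCNB2-high lines and 274, 307, 162, 161 and 148 in the CCNB2-low lines, a 4.26-fold difference of means of log2 values. UBE2C, which helps the anaphase-promoting complex to mark cyclins for destruction, read 948, 1214, 3204, 4557 and 1914 against 669, 488, 464, 538 and 289. CDC20, an activator of the same complex, read 1234, 2547, 1722, 2500 and 1105 against 696, 697, 648, 534 and 383. In none of these 3 genes did the groups overlap. The order within the CCNB2-high group differed from gene to gene, with male line 4 highest for CCNB2 but lowest of its group for UBE2C, PLK1 and TPX2. TOP2A, the topoisomerase that separates sister chromatids, overlapped on its brightest probe set, with 383, 712, 1103, 824 and 1106 against 252, 168, 449, 226 and 118, and did not on its other 2, with differences of 1.48 and 1.61.

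**Figure D1:**
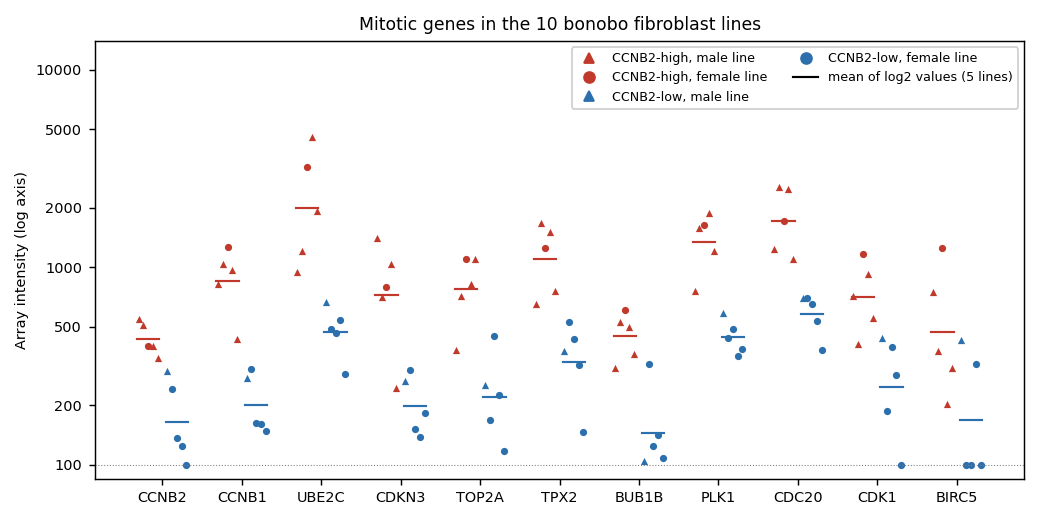
Array intensity on a log axis of CCNB2 and the 10 mitotic genes of largest difference, 1 point per line, with CCNB2-high lines in red, CCNB2-low lines in blue, triangles for males and circles for females. Bars are means of log2 values over 5 lines and the dotted line marks the floor of 100. CCNB1, UBE2C, PLK1, CDC20 and TPX2 separate the groups, whereas BIRC5, BUB1B, CDK1, CDKN3 and the plotted probe set of TOP2A overlap.

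Genes of DNA replication and S phase did not divide the lines in the same way. Of 69 measured, 46 had a higher and 23 a lower mean in the CCNB2-high lines, with a median difference of 0.12. Averaged over the list, log2 intensity was 8.34, 8.35, 8.80, 8.46 and 8.38 in the CCNB2-high lines and 8.49, 8.68, 8.70, 8.25 and 7.43 in the CCNB2-low lines. Female line 3 was highest and female line 1 by far the lowest. Among the other 8 lines, the CCNB2-low male line 1, female line 2 and female line 4 lay above every CCNB2-high line, and female line 5 lay below them. For the mitotic list the same averages were 9.06, 9.15, 9.52, 9.34 and 8.84 against 8.43, 8.56, 8.46, 8.18 and 7.76, with no overlap. Without CCNB2 they ran from 8.84 to 9.53 and from 7.77 to 8.57. The replication genes of largest difference were TYMS, thymidylate synthase (2353 ± 533 against 1262 ± 646, SD, n = 5 and 5), and TK1, thymidine kinase 1 (2128 ± 536 against 1102 ± 334). CDC25A, a phosphatase that releases cells into S phase, had the opposite direction, with 183, 264, 189, 256 and 245 in the CCNB2-high lines and 408, 458, 600, 525 and 100 in the CCNB2-low lines. All CCNB2-low lines but female line 1 lay above the CCNB2-high lines. The replication-dependent histone genes had a median difference of -0.02 over 11 genes.

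**Figure D2:**
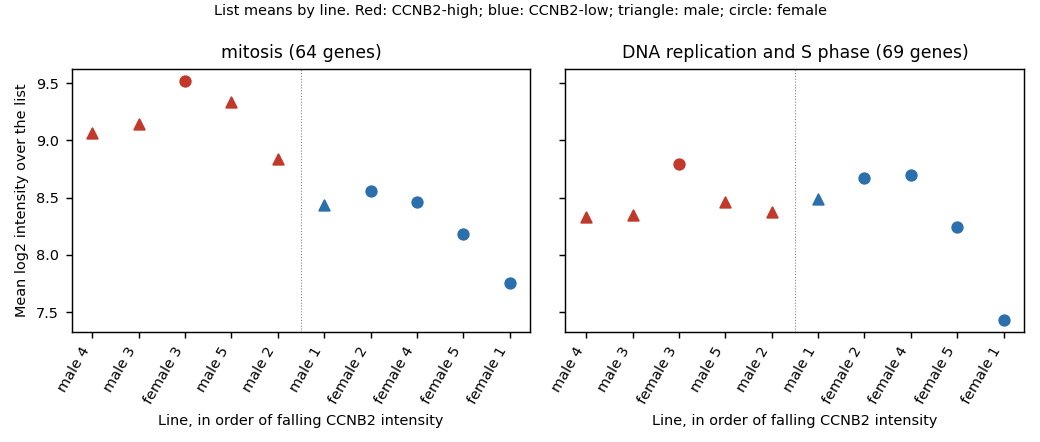
Mean log2 intensity over the mitotic list (left, 64 genes, CCNB2 included) and the replication list (right, 69 genes) in each of the 10 lines, ordered by falling CCNB2, with triangles for males, circles for females and a dotted line between the CCNB2-high (red) and CCNB2-low (blue) lines. The mitotic averages of the groups do not overlap, and the replication averages do, with female line 1 at 7.43.

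Inhibitors of cyclin-dependent kinases, which hold cells in G1, were measured for 4 genes, and on their brightest probe sets 3 had the higher mean log2 intensity in the CCNB2-high lines. CDKN1A (p21) read 4038, 5059, 3489, 4796 and 3633 in the CCNB2-high lines and 2904, 2381, 3209, 1636 and 6560 in the CCNB2-low lines, so that 4 CCNB2-low lines lay below all CCNB2-high lines and female line 1 above them. CDKN1C (p57) was 1616 in female line 1 and between 123 and 400 in the other 9 lines. CDKN2A (p16) was 278 in female line 1, 176 in male line 4 and at most 127 elsewhere. Female line 1, with the lowest CCNB2, the lowest mitotic average and the lowest replication average, also held the highest value of these 3 inhibitors. The fourth, CDKN2D (p19), read 100, 219, 391, 693 and 395 against 180, 110, 105, 277 and 138, and its second probe set had a difference of -0.03.

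Sex matched the labels: the Y-linked genes RPS4Y1 and DDX3Y were above the floor in all 5 male lines and at the floor in all 5 female lines. As the groups differ in sex, RPS4Y1 differed by 2.46 on the log2 scale between them and by 0.05 with sex as a covariate. Each of the 20 measured genes of fibroblast identity exceeded the floor in every line, with a summed intensity of 145384 to 203157 in the CCNB2-high and 139520 to 206311 in the CCNB2-low lines. Markers of endothelial, blood and melanocyte or Schwann cells had median intensities of 100 to 100.5, with CLDN5, SELE, ITGAM and TYRP1 at the floor in all lines, although single members such as ENG (1495 to 3574) were above it throughout. Keratinocyte and epithelial markers had a median of 106.5, with KRT15 and KRT19 at the floor in all lines, 6 of 19 above it in all lines (KRT7 at 551 to 3228) and summed levels of 4310 to 6444 against 4477 to 6946. The ACTB 3' to 5' ratio, a sign of RNA integrity, was 1.35 ± 0.535 in the CCNB2-high and 1.23 ± 0.191 in the CCNB2-low lines (SD, n = 5 and 5, two-sided exact permutation p = 0.794, where the smallest possible is 0.00794). Male line 4 stood apart with a ratio of 2.27 and an 18S control intensity of 253. Its GAPDH 3' to 5' ratio, 1.675, was also the highest of all lines.

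Outside the cell cycle, no gene passed the test for a difference between the groups. Of 6871 probe sets tested outside the cell cycle lists, limma called 0 higher (0.0%) and 0 lower (0.0%) in the CCNB2-high lines at an adjusted p under 0.05, two-sided. The lowest adjusted p was 0.214. The adjustment ran over all 7120 probe sets, and low p-values among the cell cycle ones lower the adjusted p of the others. An adjustment over the 6871 alone was not made, so the adjusted p-values given below may look nearer the threshold than they are. Without adjustment 241 probe sets had a p under 0.05, 150 of them higher and 91 lower, where evenly spread p-values would give 344. By size, 12 probe sets were higher and 13 lower by more than 1 on the log2 scale, and the median SE of a difference was 0.27. The typical gene outside the lists barely differed, with a median difference of 0.02 over 5067 genes, 52.6% of which had the higher mean in the CCNB2-high lines. With sex as a covariate, which correlated with the grouping at 0.6, limma again called 0 probe sets, with a lowest adjusted p of 0.458 and 295 at an unadjusted p under 0.05.

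Separation of the groups was also counted without a variance model. For 29 of the 6871 probe sets (0.422%) every CCNB2-high line lay above every CCNB2-low line, and for 11 (0.16%) every CCNB2-high line lay below. In 3 of the 29 and 1 of the 11 the other group was wholly at the floor, so the filter had fixed the separation, which leaves 26 and 10. Among the 24 genes of the first kind were ANP32E, HMGN2, HDAC3 and CTCF, all proteins of chromatin, the clock repressor CRY1 and the glycolytic enzyme TPI1. Among the 11 of the second kind were FGF4, FSTL3, PARD6A, EP300, the peroxiredoxin PRDX4 and CAD, the enzyme that opens pyrimidine synthesis. CTCF, CRY1, PRDX4 and CAD were picked from these lists after their values were seen.

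The 12 genes of lowest p with a higher mean in the CCNB2-high lines were JAK2, ANP32E, PCLAF, IHH, ADGRL1, CPT1A, ADD3, S1PR4, CROCC, VSIG4, HMGN2 and FUT4, and none passed the adjusted threshold. In 7 of the 12, at least 3 CCNB2-low lines lay at the floor, so that the floor enters their difference and the signal is weak. JAK2, the kinase that relays cytokine receptor signals, read 179, 198, 241, 154 and 211 in the CCNB2-high lines and 100, 100, 130, 100 and 100 in the CCNB2-low lines. The groups did not overlap, and the difference was 0.88 (SE 0.21, 95% interval 0.45 to 1.32, limma adjusted p = 0.214, and 0.519 with sex as a covariate).

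ANP32E, a chaperone that removes the histone variant H2A.Z from nucleosomes, was well above the floor in all lines. It read 694, 719, 826, 900 and 615 in the CCNB2-high lines and 444, 439, 399, 479 and 253 in the CCNB2-low lines. There was no overlap, and a second probe set of the gene did not overlap either, with differences of 0.92 (SE 0.23, limma adjusted p = 0.355) and 0.99. PCLAF, a partner of the replication clamp PCNA that was on none of the cell cycle lists although it is a gene of dividing cells, read 2203, 1963, 3276, 2328 and 2368 against 1435, 1556, 1134, 656 and 197. Again the groups did not overlap (difference 1.58, SE 0.44, limma adjusted p = 0.48), and female line 1 was lowest.

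HMGN2, a nucleosome-binding protein, had the highest probe set intensities of the 12, at 13867, 7792, 9283, 11322 and 7850 against 6559, 7251, 5770, 4867 and 6588. The ranges came close without overlapping, and the difference was 0.67 (SE 0.20, limma adjusted p = 0.629). ADD3, adducin 3 of the membrane skeleton, read 1477, 534, 632, 436 and 600 against 252, 274, 278, 252 and 555, where female line 1 lay among the CCNB2-high lines (difference 1.12, SE 0.34, limma adjusted p = 0.612). CPT1A, which admits fatty acids to mitochondria for oxidation, lay between 190 and 226 in the CCNB2-high lines and between 100 and 167 in the CCNB2-low lines. The remaining genes, the hedgehog ligand IHH, the adhesion receptor ADGRL1, the sphingosine phosphate receptor S1PR4, the ciliary rootlet protein CROCC, the complement receptor VSIG4 and the fucosyltransferase FUT4, had means of 165.6 to 260.6 in the CCNB2-high and 101.8 to 146.4 in the CCNB2-low lines. They lie within a few-fold of the floor, and the groups overlapped in all 6. The second probe set of IHH had a difference of -0.11, against 0.90 on the one described.

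The 12 genes of lowest p with a lower mean in the CCNB2-high lines were IL6, FGF4, PARD6A, GALR3, GP2, FSTL3, TNK1, EP300, FAM168B, TCL1B, ID3 and APOM, and again none passed. IL6, the inflammatory cytokine that fibroblasts secrete, had the lowest p of them. It read 100, 160, 165, 287 and 153 in the CCNB2-high lines and 282, 317, 980, 455 and 1071 in the CCNB2-low lines. Only male line 5 (287) and male line 1 (282) crossed, and the difference was -1.70 (SE 0.41, 95% interval -2.57 to -0.84, limma adjusted p = 0.239). Sex as a covariate gave a difference of -1.36 (limma adjusted p = 0.983).

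Outside the cell cycle lists, IL6 was the one gene called when log2 CCNB2 entered limma as a graded value instead of 2 groups. Its slope was -1.19 (SE 0.18) per log2 unit of CCNB2, with a limma adjusted p of 0.0203. That adjustment covered all 7120 probe sets, among them CCNB2 itself and the mitotic probe sets that move with it. The call may rest in part on these, as an adjustment over the 6871 outside probe sets alone was not made. The line of lowest CCNB2, female line 1, had the highest IL6. The line of highest CCNB2, male line 4, had the lowest, at the floor of 100. With sex as a covariate the slope was -1.27 and its limma adjusted p was 0.15. Without female line 1 the slope was -1.14 and its limma adjusted p was 0.141. It was also above 0.05 without male line 3 (0.0797), without female line 4 (0.0641) and without male line 4 (0.0553), and lay between 0.0198 and 0.0451 without each of the other 6 lines. These further fits were chosen after IL6 had been seen.

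FSTL3, a secreted binder of activin and myostatin, read 616, 562, 794, 738 and 684 in the CCNB2-high lines and 1256, 1147, 849, 967 and 1096 in the CCNB2-low lines. The groups did not overlap (difference -0.64, SE 0.19, limma adjusted p = 0.612). ID3, a BMP-induced inhibitor of differentiation factors, read 2676, 4937, 3964, 4097 and 3137 against 8903, 3899, 4879, 6376 and 7754, with overlap (difference -0.73, SE 0.24, limma adjusted p = 0.823). Both belong to the list of TGF-beta and BMP signalling. FAM168B, at 762, 680, 788, 482 and 613 against 1040, 1145, 967, 1228 and 836, did not overlap (difference -0.66), and its second probe set had a difference of -0.20.

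Among the others, 5 of the 12 genes had at least 3 CCNB2-high lines at the floor. FGF4, a growth factor, lay between 100 and 135 in the CCNB2-high lines and between 149 and 229 in the CCNB2-low lines, and EP300, a histone acetyltransferase, between 100 and 137 against 143 and 237. PARD6A, a cell polarity protein, read at most 109 against 130 to 341. These 3 did not overlap. The galanin receptor GALR3, the glycoprotein GP2, the kinase TNK1, TCL1B and the apolipoprotein APOM overlapped, with means of 109.4 to 140.8 in the CCNB2-high and 208.4 to 339.0 in the CCNB2-low lines. The second probe set of GALR3 had a difference of 0.11, against -1.12 on the one described.

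**Figure D3:**
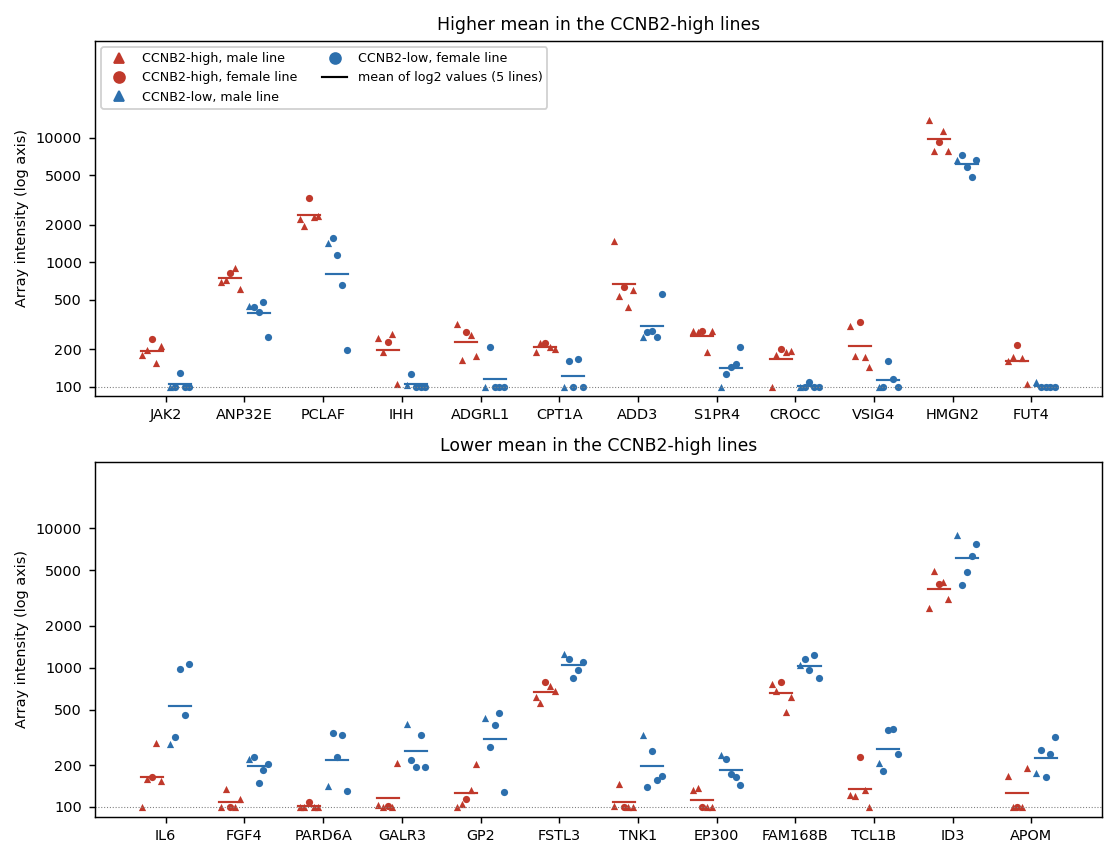
Array intensity on a log axis of the 12 genes of lowest p in each direction outside the cell cycle, 1 point per line, colours, shapes and bars as for the mitotic genes, with the floor of 100 dotted. ANP32E, PCLAF, ADD3, HMGN2, FSTL3, FAM168B and ID3 lie above the floor in all lines, and many of the others have most lines of 1 group at the floor.

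All 24 genes kept the sign of their difference within females, where 1 CCNB2-high line faces 4 CCNB2-low lines, and within males, where 4 face 1. Over all genes outside the cell cycle lists 51.5% had the same sign in both sexes, but the 24 were picked for their difference over all lines, which the within-sex values share. Within females and within males the difference was 1.11 and 0.71 for ANP32E, 1.17 and 0.88 for JAK2, and -1.92 and -0.79 for IL6.

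Chromatin, nuclear transport, splicing and microtubule lists leaned towards the CCNB2-high lines. Of 33 chromatin proteins, 28 had a higher mean there and the median difference was 0.19, of 25 nuclear transport and pore proteins 22 (median 0.21), of 53 splicing and RNA-binding proteins 39 (median 0.12), and of 30 tubulins and microtubule proteins 22 (median 0.10), where the median over all genes was 0.02. No member of these lists passed the adjusted threshold, and 3 of the 33 chromatin genes (ANP32E, HDAC3 and HMGN2) did not overlap, beside 0.422% of all probe sets. These counts describe the lists and are not a test. The border with the cell cycle was set by list membership alone. Thus LMNB1, HMGB2, KPNA2 and TUBB were on the mitotic list, and LMNB2, HMGB1, CSE1L and CKAP5 on these.

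In the chromatin list the leading members were ANP32E, H2AX, LMNB2 and HDAC3. H2AX, the histone variant phosphorylated at DNA breaks, read 122, 560, 796, 908 and 651 in the CCNB2-high lines and 307, 294, 291, 389 and 155 in the CCNB2-low lines. Male line 4 read lowest of all lines, below every CCNB2-low line, and the other CCNB2-high lines lay above every CCNB2-low line. The difference of 0.87 (SE 0.46) became 1.38 without male line 4 (limma adjusted p = 0.183). LMNB2, lamin B2 of the nuclear lamina, read 2096, 3137, 2995, 4107 and 3441 against 2130, 2617, 2238, 1855 and 796. Male line 4 was the one CCNB2-high line within the CCNB2-low range (difference 0.78, SE 0.29, limma adjusted p = 0.988). HDAC3, a histone deacetylase, had a tight CCNB2-high range of 232 to 272 against 100 to 205, with no overlap (difference 0.76, SE 0.26, limma adjusted p = 0.84).

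The nuclear transport genes of largest difference were NUP50 and NUP214 of the nuclear pore and the exportin CSE1L. NUP50 averaged 379.6 ± 69.2 against 234.4 ± 87.8 (SD, n = 5 and 5), a difference of 0.77 (SE 0.31, limma adjusted p = 1.0). CKAP5, a microtubule polymerase, read 611, 543, 594, 415 and 318 against 360, 322, 254, 195 and 309, so that male line 2 alone crossed (difference 0.77, SE 0.27, limma adjusted p = 0.889). The ribonucleoproteins HNRNPL and HNRNPC led the splicing list with differences of 0.47 (SE 0.20) and 0.40 (SE 0.25).

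Without female line 1 the list medians were 0.02 for nuclear transport and 0.0026 for splicing, while they were 0.13 for chromatin and 0.11 for tubulins. Its own list average was 8.25 for nuclear transport, against 8.88 to 9.23 in the other 9 lines, and 9.11 for splicing, against 9.58 to 9.87. The highest splicing average, 9.87, was that of a CCNB2-low line, female line 2. For nuclear transport female line 2 had 9.15, below only female line 3.

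Matrix genes leaned the other way. Of 21 genes for fibrillar collagens and their processing, 18 had a lower mean in the CCNB2-high lines (median difference -0.18), as had 15 of 22 for basement membrane and other collagens (-0.13) and 30 of 43 for matrix glycoproteins and proteoglycans (-0.09). No member was called, as among all 6871 probe sets, and none of the 3 lists held a gene that separated the groups. Over all probe sets outside the cell cycle lists 0.422% separated with higher and 0.16% with lower values. At these shares lists of this size would hold few such genes or none. PCOLCE, which speeds the trimming of procollagen, read 3047, 2051, 2171, 3093 and 2020 in the CCNB2-high lines and 3636, 2045, 6650, 3281 and 4636 in the CCNB2-low lines. Female line 2 was the only CCNB2-low line within the CCNB2-high range (difference -0.63, SE 0.27, limma adjusted p = 1.0). LOXL1, a collagen and elastin cross-linker, averaged 2938 ± 987 against 4096 ± 814 (difference -0.52, SE 0.23).

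Single matrix genes varied more between lines than between groups. COL11A1 ran from 100 in male line 4 to 2575 in male line 5 within the CCNB2-high lines and from 268 to 4289 within the CCNB2-low lines, and its difference of -0.97 had an SE of 0.76. ELN, elastin, lay between 1196 and 1620 in the CCNB2-high lines except male line 4, which read 110, against 323 in female line 1 and 1674 to 4541 in the other CCNB2-low lines (difference -1.03, SE 0.72). Its second probe set read 1179 in male line 4 and had a difference of -0.25. Some members pointed up. DPT, dermatopontin, had a difference of 1.09 (SE 0.45), but its other 2 probe sets had -0.19 and 0.74, and BGN, biglycan, had 0.73 (SE 0.44). The median of the fibrillar collagen list was -0.07 without male line 4 and -0.10 without female line 2.

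The list furthest below 0 was that of matrix proteases and their inhibitors. Of 27 genes, 22 had a lower mean in the CCNB2-high lines, with a median difference of -0.35. PLAUR, the urokinase receptor, read 480, 862, 999, 866 and 972 in the CCNB2-high lines and 2094, 1029, 1982, 1665 and 862 in the CCNB2-low lines. Female line 1 fell within the CCNB2-high range, and the difference was -0.83 (SE 0.28, limma adjusted p = 0.84). MMP1, interstitial collagenase, had the largest difference of the list, -1.28, but an SE of 0.88, as it ran from 382 to 8128 and from 951 to 12032 within the 2 groups. CTSL, the lysosomal cathepsin L, averaged 5114 ± 1538 against 7562 ± 2126 (difference -0.57, SE 0.24, limma adjusted p = 1.0). The median of the list was -0.15 without male line 4, -0.16 without female line 3 and -0.18 without female line 4.

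Lysosomal genes were close behind, with 25 of 32 lower and a median of -0.25. The cathepsins CTSL and CTSD were on this list and also on that of matrix proteases. NEU1, lysosomal sialidase, read 384, 535, 418, 603 and 681 against 540, 655, 845, 1046 and 1128 (difference -0.66, SE 0.26, limma adjusted p = 1.0). The aspartic protease CTSD averaged 1414 ± 763 against 2024 ± 910. Female line 1 had the highest lysosomal average, 10.23 against 9.25 to 9.93 in the other lines, and without it the median was -0.10. Leaving out female line 3, female line 4 or male line 4 gave -0.158 to -0.172.

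**Figure D4:**
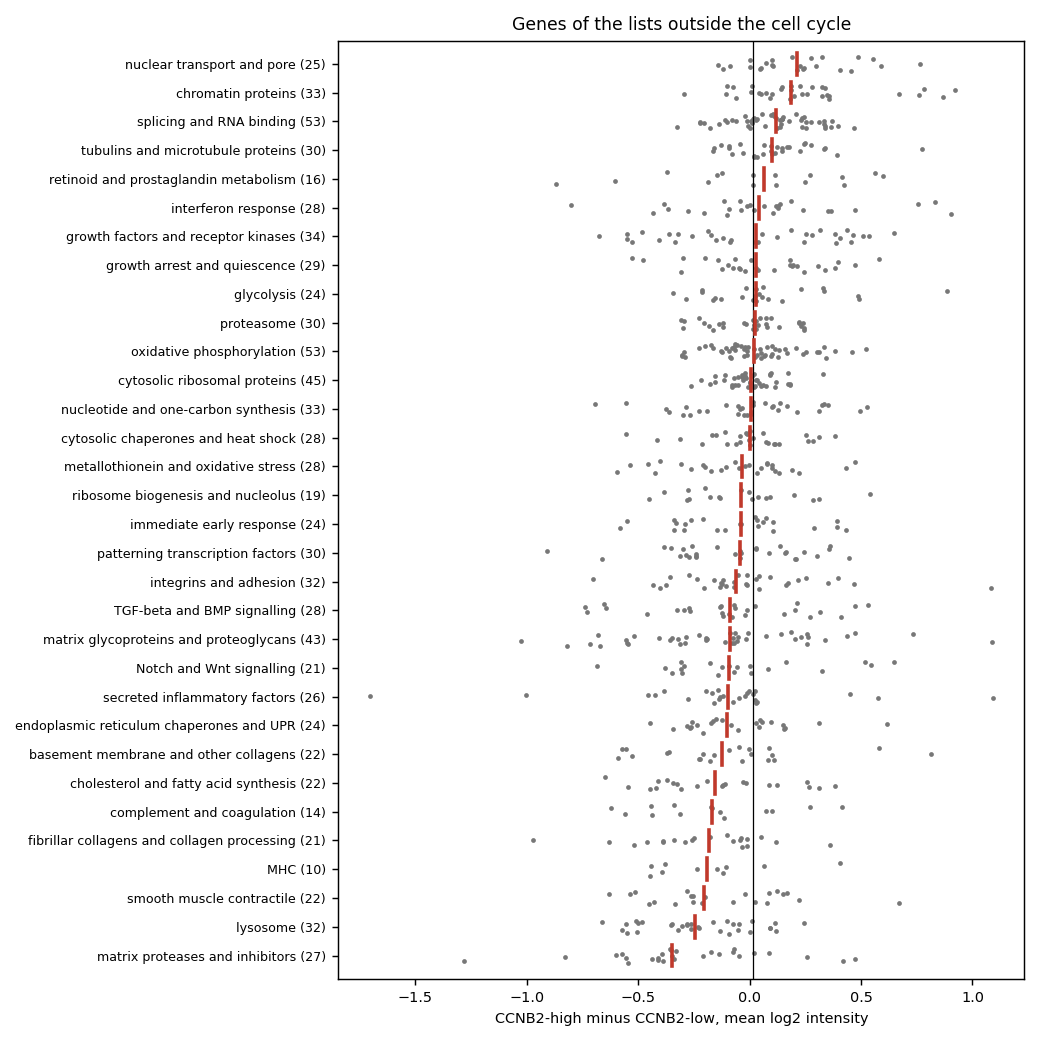
Differences between CCNB2-high and CCNB2-low lines, as mean log2 intensity, for the measured genes (grey points) of 32 lists outside the cell cycle, ordered by their median (red bar), with the number of genes in brackets. The vertical line is the median of all genes outside the cell cycle, 0.02. List medians run from -0.35 for matrix proteases to 0.21 for nuclear transport, and the single genes of every list spread over both sides of the line.

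Among other secreted and contractile genes the directions were more mixed. Of 26 secreted inflammatory factors 18 were lower, with a median of -0.10. PTX3, a soluble pattern-recognition protein, averaged 2791 ± 2697 against 4354 ± 2664, and VCAM1, a leukocyte adhesion molecule, had a difference of 1.09 (SE 0.50), led by 1128 in male line 4 against 100 to 342 in the other 9 lines. In the list of smooth muscle contractile genes 14 of 22 were lower with a median of -0.21, which was 0.05 with sex as a covariate and ran from -0.38 (without female line 3) to 0.03 (without male line 3) when single lines were left out. TAGLN, transgelin, averaged 13710 ± 10640 against 17050 ± 4435.

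In the list of TGF-beta and BMP signalling 19 of 28 were lower (median -0.09), with GREM1, a BMP antagonist (-0.74, SE 0.43, but 0.47 on its other probe set), and TGFB3 (-0.65, SE 0.34) beside ID3 and FSTL3. Growth factors and receptor kinases were divided 18 to 16 (median 0.03, and -0.04 without male line 4). FGFR1, an FGF receptor, read 1275, 3226, 2411, 3107 and 2894 against 4242, 2891, 4705, 4374 and 3689, with a difference of -0.68 (SE 0.25, limma adjusted p = 0.984). Its other 3 probe sets all had negative differences, from -0.70 to -0.06. ITGA6, an integrin of laminin, read 739, 759, 637, 446 and 847 against 162, 401, 1143, 283 and 151, with female line 4 above all CCNB2-high lines (difference 1.08, SE 0.45, limma adjusted p = 1.0).

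Genes of growth arrest and quiescence were divided. Of 29 measured, 16 were higher and 13 lower in the CCNB2-high lines, with a median of 0.03. KLF4, a transcription factor of arrest, averaged 257.6 ± 74.8 against 170.0 ± 34.4 (difference 0.58, SE 0.28), and GAS1 657.6 ± 257.3 against 921.2 ± 244.7 (-0.53, SE 0.28, and -0.11 with sex as a covariate).

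Biosynthesis and energy metabolism were also close to even. The split was 27 higher to 26 lower for oxidative phosphorylation (median 0.02), 25 to 20 for cytosolic ribosomal proteins (0.01), 8 to 11 for ribosome biogenesis (-0.04), 17 to 16 for nucleotide and one-carbon synthesis (0.01), 18 to 12 for the proteasome (0.02) and 15 to 9 for glycolysis (0.03). Without male line 4 the medians were -0.05 for oxidative phosphorylation and for ribosomal proteins and 0.06 for ribosome biogenesis. TPI1, triosephosphate isomerase, was separated in the glycolysis list, at 2648, 2642, 2254, 2108 and 2250 against 1745, 1686, 1647, 1893 and 1502. The groups did not overlap, and the difference was 0.49 (SE 0.16, limma adjusted p = 0.803). In cholesterol and fatty acid synthesis 16 of 22 were lower (median -0.16). FASN, fatty acid synthase, read 1023, 1305, 1087, 1190 and 1199 against 1861, 1648, 2092, 1815 and 1184, where female line 1 alone fell within the CCNB2-high range (difference -0.55, SE 0.19, limma adjusted p = 0.84).

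The sexes gave different list medians for several groups of genes, each from a comparison in which 1 side is a single line. Within females (female line 3 against 4 lines) the mitotic median was 1.27 and the replication median 0.63, and within males (4 lines against male line 1) they were 0.57 and -0.16. Chromatin proteins were alike in both, at 0.30 and 0.32. The lists of nuclear transport (0.48 and 0.15), splicing (0.12 and 0.06) and tubulins (0.21 and 0.03) were also above 0 in both. Lysosomal genes were at -0.54 within females and 0.02 within males, and contractile genes at 0.45 and -0.52. These differences between the sexes were not tested. Over all genes outside the cell cycle the medians were 0.03 and 0.01.

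**Figure D5:**
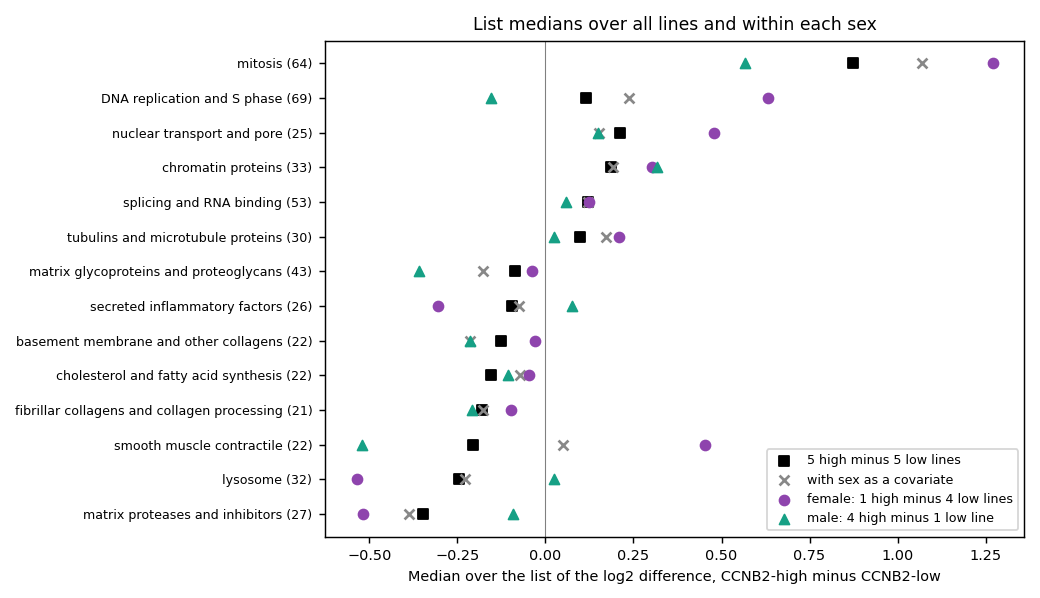
Median log2 difference between CCNB2-high and CCNB2-low lines for 14 lists, over all lines (black squares), with sex as a covariate (grey crosses), within females (purple circles, 1 against 4 lines) and within males (green triangles, 4 against 1 line). The mitosis, chromatin, nuclear transport, splicing and tubulin lists lie to the right of 0 in all 4 versions. Smooth muscle contractile genes run from -0.52 to 0.45.

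A few probe sets were at the floor throughout 1 group. ASIP, the agouti signalling protein, was at the floor in all CCNB2-high lines and at 114 to 134 in the CCNB2-low lines. Outside the cell cycle lists FMO6P, CLCN5 and SMAD5 were at the floor in all CCNB2-low lines, and read 102 to 157, 108 to 262 and 103 to 197 in the CCNB2-high lines. TROAP, a spindle protein of the mitotic list, was at the floor in all CCNB2-low lines and reached 616 in male line 5. Apart from TROAP these levels were under 3 times the floor, and no fold is given for them.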

How the data were processed

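Each deposited array gives linear intensities as whole numbers. The array is a human Affymetrix design with 12625 probe sets, whose probes follow human and not bonobo sequences. The authors' probe summary and scaling are not given in the sources used here. Array means after trimming 2% differed by at most 3.07%, so the deposited scaling was kept. A floor of 100, the 40th percentile of all values, was set before log2. It is also the lowest deposited value in 9 of the 10 arrays (90 in male line 5). Between 52.1% and 60.9% of probe sets lay above it per array. The number of arrays limits the precision.

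After leaving out 67 control probe sets, 7120 probe sets that exceeded the floor in 5 or more of the 10 lines entered limma (version 3.58.1, R version 4.3.3, functions lmFit and eBayes, prior variance following intensity), with Benjamini-Hochberg adjustment over all 7120. The 249 probe sets of 4 cell cycle lists were part of this fit and adjustment, but they are described here without their p-values. Symbols came from a probe annotation of 2016, and 772 of the 6871 probe sets outside these lists had no single symbol. The probe set of highest mean stood for a gene. The 2 groups rest on a measured value, CCNB2, read from the same arrays as the genes compared.

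Genes were named by rule: the 12 of lowest p in each direction, 2 to 4 members of largest difference per list (10 for mitosis, 6 for replication), Y-linked genes and inhibitors of cyclin-dependent kinases. Members, lists and rule were chosen with earlier results of these data known. Other scalings, floors, filters, variance models and covariates, and leaving out each line, were tried. The functions were tested on simulated data.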

Additional observations from a re-analysis of the deposited data

Results flagged for a closer look

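In 110 sets of 5 values (24 named genes, the cell cycle genes named, 2 list averages and 4 array measures, each in both groups), 20 had 1 line far from the other 4 by Dixon's criterion, which chance meets in about 1 of 20. In 7 of them at least 3 of the other lines were at the floor: among the CCNB2-low lines JAK2 (130 in female line 4), IHH (127 in female line 2), ADGRL1 (209 in female line 2), CROCC (109 in female line 4) and FUT4 (110 in male line 1), and among the CCNB2-high lines PARD6A (109 in female line 3) and TNK1 (146 in male line 3). Female line 1 stood apart from the other CCNB2-low lines in ANP32E (253 against 399 to 479), ADD3 (555 against 252 to 278), CDC25A (100 against 408 to 600), CDKN1C (1616 against 123 to 192) and CDKN2A (278 against 100 to 127). Female line 2 did so in BUB1B (325 against 104 to 142).

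Among the CCNB2-high lines, male line 4 stood apart in CROCC (100 against 181 to 200), CDKN2A (176 against 100 to 109), the ACTB 3' to 5' ratio (2.27 against 0.85 to 1.26) and the 18S control intensity (253 against 100 to 131.3). Male line 5 was lower in S1PR4 (190 against 274 to 282), male line 2 higher in GALR3 (206 against 100 to 103), and female line 3 higher in the replication list average (8.80 against 8.34 to 8.46).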

How the results depend on the processing

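No paired analysis was possible because the line numbers were given in accession order and pair nothing. Under 22 alternatives limma called 0 probe sets outside the cell cycle lists except in 2: with log2 CCNB2 as a graded value 1 was lower (IL6, adjusted p = 0.0203), and without female line 5 1 was higher, a second probe set of CRABP2 (0.0483, against 0.486 with all lines), so that leaving out a line gave 0 to 1 higher and 0 to 0 lower. The number of separated probe sets, 29 higher and 11 lower, was 18 lower after quantile normalization. With a floor at the 60th percentile or only probe sets above the floor in all lines, where fewer are tested, lower fell to 7 and higher to 20 and 20. Leaving out a line, which eases the criterion, gave 41 to 70 higher and 17 to 43 lower, and leaving out the 2 lines nearest the threshold, an alternative chosen after seeing the data, 87 and 44. Of the 24 genes of lowest p, 0 changed sign, and of 32 list medians outside the cell cycle 16 did under some alternative. FADS2, which led the fatty acid list at -0.65, was at 0.0569 with sex as a covariate. The growth factor median, 0.03, was -0.17 over probe sets above the floor in all lines and had the other sign in 8 of 21 alternatives.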
